A study of Mus musculus with 12 samples.

Results

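The Sfmbt2 intron miRNA cluster is a run of small hairpin genes inside the Polycomb-group gene Sfmbt2. Its members were taken by position: every GENCODE M21 miRNA gene on the plus strand of GRCm38 chromosome 2 inside the bounds of Sfmbt2 (10370510 to 10595253). This gave 119 of the 2202 annotated miRNA genes. They are 5 Mir297, 23 Mir466, 14 Mir467 and 29 Mir669 hairpins, and 48 hairpins that carry only a Gm number. The first hairpin, Gm22072, starts at 10465287 and the last, Mir669h, ends at 10518279. All 119 lie in 1 intron of 62.5 kb (10461473 to 10523944), between exons 11 and 12 of the transcript Sfmbt2-205, and 0 of them overlap an exon.

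Sfmbt2 is an imprinted gene, expressed from the paternal allele and needed in the placenta, and its intronic miRNA cluster is found in rodents. A miRNA hairpin is cut out of its transcript by Drosha and then cut again by Dicer into a short duplex. Ago2 keeps 1 strand of that duplex and uses bases 2 to 8 of it, the seed, to find target mRNAs. A product from the left arm of the hairpin is called 5p and one from the right arm 3p.

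The small RNAs came from mouse embryonic stem cells on gelatin-coated plates, with no feeder cells named in the labels, and were cut from a gel at 18 to 75 nt. TT-FHAgo2 cells make Ago2 with FLAG and HA tags from a gene that doxycycline switches on, and TT-Ago2 cells make untagged Ago2 in the same way; each is a clonal line. Both were kept in 0.1 µg/mL doxycycline and raised to 2.5 µg/mL, which the labels describe as giving wildtype levels of Ago2. The replicated groups are the FLAG immunoprecipitate of TT-FHAgo2 cells (tagged IP), the FLAG immunoprecipitate of TT-Ago2 cells (untagged IP), and the starting RNA of each line (tagged input and untagged input), with 2 libraries each. These 8 libraries were cloned by circularization, which does not need a 5' phosphate. Single libraries, cloned by a protocol that needs a 5' phosphate, came from Dicer null cells, from TT-FHAgo2 cells with 2.5 µg/mL doxycycline, from TT-FHAgo2 cells without doxycycline and from wildtype cells; Dicer null and wildtype cells had no doxycycline. The series text describes the cells without doxycycline as lacking Ago, and no source used here gives how long doxycycline had been withdrawn. Each single group is 1 library, so its values have no replicate check. The labels do not say whether replicates came from separate cultures, so p-values measure only the spread between these libraries.

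The libraries held 14474875 to 78762632 reads, and levels are given in CPM, reads per 1000000 reads of the file. Where a feature had 0 counts, its level can be as high as 0.0381 to 0.207 CPM (3 counts of the total) by counting error alone. Replicates are named A and B after 2 codes in the titles; the longest reads were 50 nt in A and 51 nt in B. Within each group, A and B differed beyond counting noise, with chi-square values per degree of freedom over cluster features of 131 for the tagged IP, 26.3 for the untagged IP, 24.7 for the tagged input and 48.5 for the untagged input. The 11 marker hairpins of embryonic stem cells (Mir290a to Mir295, Mir302a to Mir302d and Mir367) together held 291445 to 398522 CPM in the tagged IP, 260 CPM in Dicer null cells and 78476 CPM in wildtype cells. Markers of other cells were lower as sums, but not one by one. In the tagged IP Mir302a to Mir302d and Mir367 stood at 8.27 to 226 CPM, so Mir290a to Mir295 carried the stem cell sum. Mir150 of blood stood above those 5 at 2053 (A) and 1642 CPM (B), and so did Mir145a of fibroblasts at 307 and 394 CPM. In the tagged IP the 4 blood markers summed to 1645 to 2058 CPM, the 6 fibroblast markers to 564 to 592 CPM and 3 neural markers to 184 to 218 CPM; Mir122 of liver and the 5 muscle markers stayed at or below 11.7 CPM in all 12 libraries. The part of other cells in the cluster's values was not tested, and in bulk RNA a smaller number of expressing cells and less RNA per cell cannot be told apart.

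The cluster is built from repeats of the same few hairpins. Mir467 hairpins follow each other at a median spacing of 2.45 kb, Mir466 hairpins at 2.42 kb and Mir669 hairpins at 2.42 kb. The 14 Mir467 genes hold 7 distinct hairpin sequences, of which 1 occurs 6 times, and the 29 Mir669 genes hold 20, of which 1 occurs 9 times. The 23 Mir466 genes hold 21 distinct sequences. The hexamer TGTGTG or its reverse complement CACACA was present on the hairpin strand in 115 of 119 cluster hairpins (96.6%) and in 314 of the 2083 other miRNA hairpins (15.1%), so runs of alternating bases are a feature of the cluster. Hairpins of Mir466 and Mir669 are shown here because each gives products from both arms; capitals mark the most abundant wildtype read of each arm. They are read from the GENCODE M21 transcripts, plus strand of GRCm38, at chr2:10474219-10474300 for Mir466b-1 and chr2:10476853-10476949 for Mir669a-1.
Mir466b-1: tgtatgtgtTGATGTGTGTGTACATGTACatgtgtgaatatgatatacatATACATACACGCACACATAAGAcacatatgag
Mir669a-1: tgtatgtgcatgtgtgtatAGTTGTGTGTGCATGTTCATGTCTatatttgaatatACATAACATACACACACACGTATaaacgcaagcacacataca

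Because copies are alike, a read often fits several hairpins. Each distinct sequence was therefore counted once, for a merged feature that names all hairpins holding it. The cluster had 189 such features with reads that occur in no hairpin outside it, and 63 more that also occur in outside hairpins and were kept apart. When reads were split evenly over the hairpins they fit, 117 of the 119 members had some reads; the 2 without were Gm24167 and Gm24028, named after their values were seen. Only 57 members had a read that fits them alone, and 30 had at least 100 such reads over the 12 libraries. The evenly split level in the tagged IP had a median of 104 CPM over the 119 members, with 388 CPM for Mir467, 311 CPM for Mir466, 167 CPM for Mir669, 91.8 CPM for Mir297 and 0.354 CPM for the Gm hairpins. Mir466d was highest at 1149 CPM. Of the 48 Gm hairpins 4 reached 100 CPM (Gm25285, Gm25022, Gm25943 and Gm26092, named after their values were seen), and each of these had 0 reads that fit it alone.

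**Figure D1:**
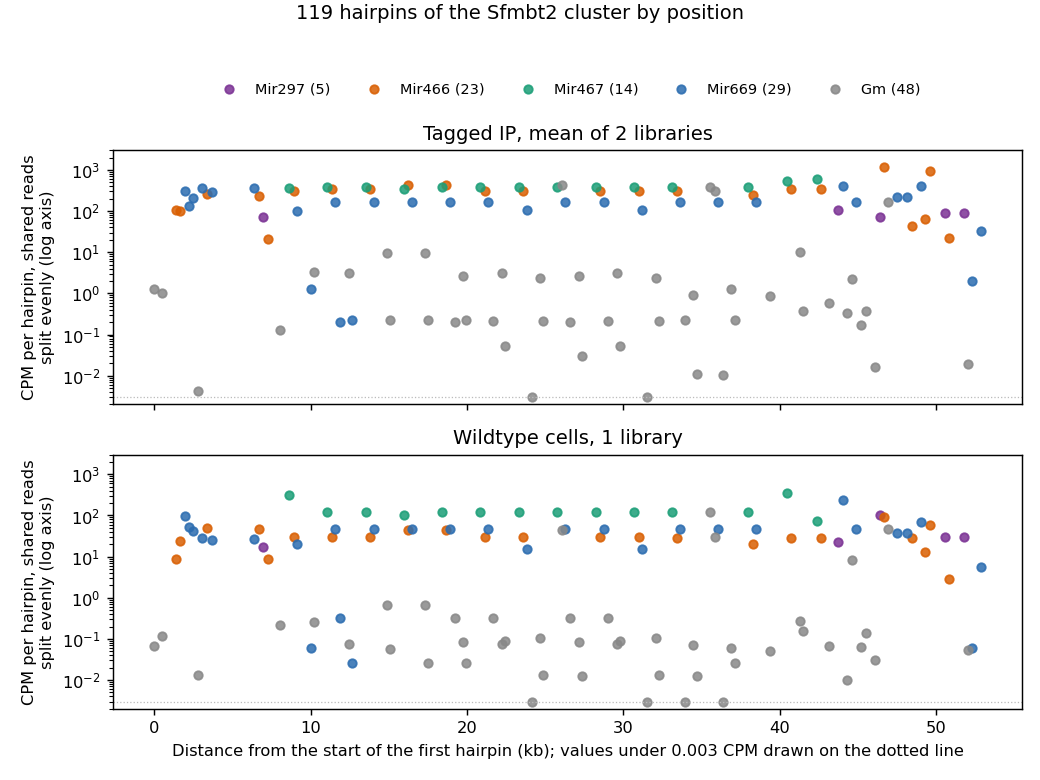
Position of the 119 hairpins along the intron (x axis, kb from the first hairpin) against their level in CPM with reads split evenly over matching hairpins (y axis, log scale), for the tagged IP mean of 2 libraries (top) and the single wildtype library (bottom). Colours mark families, and hairpins near 0 sit on the dotted line. Named hairpins recur through the whole 53.0 kb, from 0.200 CPM to 1149 CPM in the tagged IP; copies that share reads have equal levels by the even split, and most Gm hairpins lie below 1 CPM.

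The 8 most abundant products in the tagged IP are given here, since they carry the results that follow; the seed, bases 2 to 8, is in capitals. They are reads of the deposited files, all from chromosome 2.
Mir466b group, 3p, 14 hairpins: tATACATAcacgcacacataaga
Mir467a group, 5p, 12 hairpins: tAAGTGCCtgcatgtatatgc
Mir669a group, 5p, 15 hairpins: aGTTGTGTgtgcatgttcatgtc
Mir466d and Mir466h, 3p: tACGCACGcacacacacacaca
Mir467a group, 5p, starting 1 base later: aAGTGCCTgcatgtatatgc
Mir466b group, 3p, starting 1 base later, 15 hairpins: aTACATACacgcacacataaga
Mir669a group, 3p, 13 hairpins: aCATAACAtacacacacacgtat
Mir669d and Mir669d-2, 5p: aCTTGTGTgtgcatgtatatgt

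Cluster reads carried 308 different seeds, but few of them dominated. In the tagged IP mean, ATACATA of the Mir466b 3p product took 15.98% of cluster reads, AAGTGCC of the Mir467a 5p product 13.6%, GTTGTGT of Mir669a 9.39% and ACGCACG of Mir466d and Mir466h 6.22%. The replicates differed: AAGTGCC took 17.5% in A and 10.5% in B, and ATACATA 17.4% in A and 14.9% in B, so ATACATA led in B and the pair was nearly level in A. In the wildtype library AAGTGCC took 26.6%, CATAACA of the Mir669a 3p product 8.40% and ATACATA 6.66%. The libraries differ in cloning protocol as well as in selection, and the part of each was not tested. The Mir467a seed is shared with stem cell miRNAs on chromosome 7, printed for comparison, where Mir292 carries all 7 seed bases and Mir294 the first 6 of them.
Mir292, 3p: aAAGTGCCgccaggttttgagtgt
Mir294, 3p: aAAGTGCTtcccttttgtgtgt
Mir292 reads with this seed stood at 10691 CPM in the tagged IP mean and 2710 CPM in wildtype cells. Cluster reads with the same seed stood at 2648 CPM in the tagged IP mean and 1176 CPM in wildtype cells. By contrast GTTGTGT was found at 0 CPM and ATACATA at 0.385 CPM in other hairpins in the tagged IP mean. Among reads that fit either cluster hairpins alone or outside hairpins alone, those seeds thus came nearly wholly from this cluster. Reads that fit both, at 766 CPM over all seeds in the tagged IP mean, were left out. Reads outside annotated miRNA hairpins were not searched for them.

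The comparison of the tagged IP with the untagged IP asks which small RNAs the FLAG antibody recovers through tagged Ago2. The cluster as a whole stood at 17119 CPM (A) and 21816 CPM (B) in the tagged IP, against 2014 CPM and 3474 CPM in the untagged IP. Both tagged libraries lay above both untagged ones, by 7.09 times in the mean, 8.50 times within A and 6.28 times within B. The mean was 19467 ± 3321 CPM for the tagged IP and 2744 ± 1032 CPM for the untagged IP (n = 2 each, SD; exact two-sided permutation p 0.333, the smallest that 2 libraries against 2 allow). All hairpins together took 54.5% ± 5.39 of tagged IP reads and 11.1% ± 2.73 of untagged IP reads (n = 2 each, SD), so most of this difference was common to miRNAs. As a share of hairpin reads the cluster made up 2.93% (A) and 4.30% (B) of the tagged IP, against 2.19% and 2.66% of the untagged IP. Those ranges did not overlap, and the ratio of means was 1.49 (1.34 within A and 1.62 within B; exact two-sided permutation p 0.333).

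**Figure D2:**
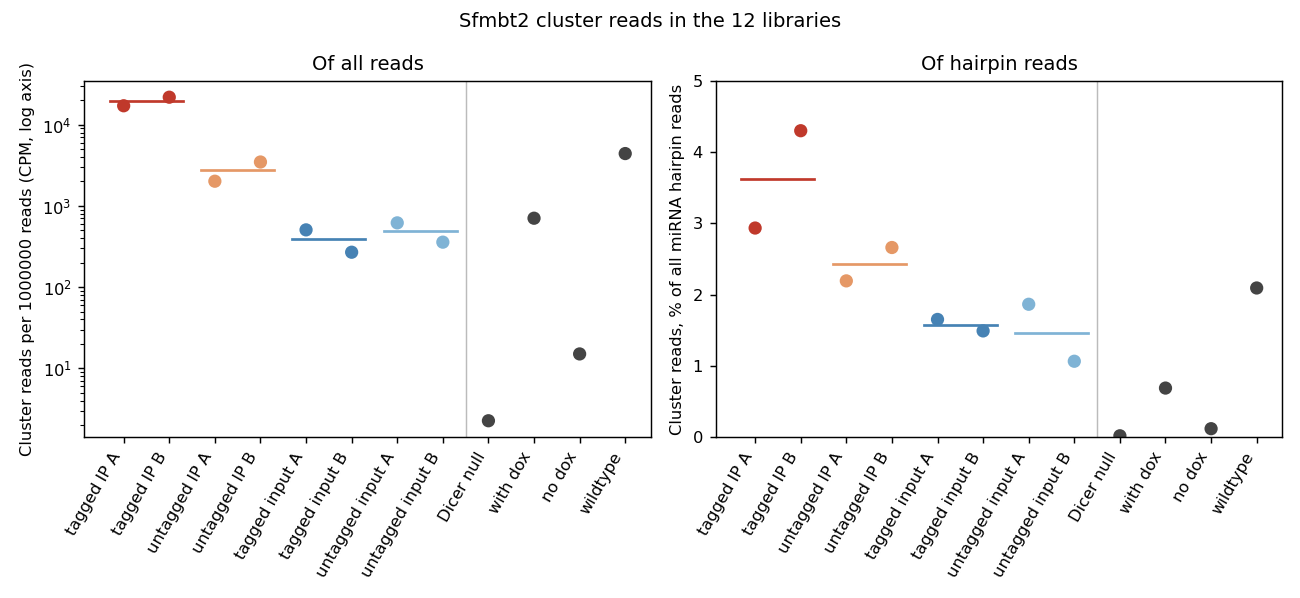
Summed level of the cluster in each of the 12 libraries, in CPM of all reads (y axis, log scale) and as a percent of miRNA hairpin reads; points are single libraries. Tagged IP libraries lie highest at 17119 and 21816 CPM, and the Dicer null library lowest at 2.26 CPM.

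Of 698 hairpin features tested over the whole annotation, 546 (78.2%) were higher in the tagged IP and 57 (8.17%) lower, by edgeR at an adjusted p under 0.05. Of the cluster's 189 features, 81 passed the filter on low counts, and the other 108 held 1276 of the cluster's 1227575 reads. All 81 tested were called higher, with a median log2 fold change of 2.98 and a range of 2.05 to 4.61, beside a median of 2.42 over all 698. Each of the 81 had at least 10 reads in both tagged IP libraries, but 24 of them reached that in no other group; these passed the filter through the group where they were high, so the count gives no support of its own. By family the medians were 3.005 for 34 Mir466 features, 2.90 for 8 Mir467, 3.03 for 27 Mir669 and 2.60 for 5 Mir297. Medians of other miRNA groups were 2.22 for 10 features of the Mir290a-Mir295 cluster, the main stem cell miRNAs, 9 of them higher, and 2.36 for 50 features of the imprinted Dlk1-Dio3 cluster, 48 of them higher.

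Most of the fold change is a shift shared by all hairpins, and the calls rest on scaling to all reads of a file. With library sizes set to hairpin reads the median of all hairpins was 0.10 on the log2 scale and that of 66 tested cluster features 0.74, and edgeR called 0 of these, with 0 at an unadjusted p under 0.05. With TMM factors over hairpins the medians were 0.08 over all and 0.64 in the cluster, and edgeR called 0 of 81, again with 0 at an unadjusted p under 0.05. DESeq2 gave medians of 0.05 and 0.63 and called 0 of 81. Over all hairpins TMM gave 1 of 698 higher and 98 lower, hairpin reads 0 of 570 higher and 122 lower, and DESeq2 0 of 698 higher and 103 lower.

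The Mir467a 5p feature, merged over 10 Mir467a copies, Mir467b and Gm25022, was the most abundant of the cluster. It stood at 3715 CPM (A) and 4514 CPM (B) in the tagged IP, at 628 and 863 CPM in the untagged IP, at 136 and 107 CPM in the tagged input and at 159 and 158 CPM in the untagged input. No tagged IP library overlapped another group. The log2 fold change between the IPs was 2.46 (SE 0.56, adjusted p 0.00385 by edgeR), and it was 5.08 against the tagged input (SE 0.63, adjusted p 7.75e-06 by edgeR). The Mir466b 3p feature of 14 hairpins was next, with 2187 and 2303 CPM in the tagged IP, against 133 and 340 CPM in the untagged IP. It had 33.7 and 3.01 CPM in the tagged input, against 49.3 and 0.760 CPM in the untagged input. Its input libraries differed between A and B far more than its IP libraries did. Its log2 fold change between the IPs was 3.25 (SE 1.19, edgeR adjusted p 0.0181). The Mir669a 5p feature of 15 hairpins stood at 1065 and 1583 CPM in the tagged IP, against 128 and 293 CPM in the untagged IP, with a log2 fold change of 2.65 (SE 0.66, adjusted p 0.00385 by edgeR).

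Other abundant features spanned the families. Mir466d with Mir466h stood at 1004 and 1110 CPM in the tagged IP, against 106 and 147 CPM in the untagged IP (log2 fold change 3.06). The Mir669a 3p feature of 13 hairpins stood at 996 and 968 CPM in the tagged IP, against 82.2 and 139 CPM in the untagged IP (3.15). Among hairpins with reads of their own, Mir467e stood at 349 and 713 CPM in the tagged IP, against 48.3 and 83.3 CPM in the untagged IP (3.01). Each of these 3 had both tagged libraries above both untagged ones. Mir467d averaged 568 ± 47.5 CPM in the tagged IP, against 115 ± 36.5 CPM in the untagged IP, and Mir467c 369 ± 2.47 CPM in the tagged IP, against 57.7 ± 8.90 CPM in the untagged IP (n = 2 each, SD). The Mir297c feature of 4 hairpins, the most abundant of its family, averaged 118 ± 18.8 CPM in the tagged IP, against 18.4 ± 6.08 CPM in the untagged IP (n = 2 each, SD; log2 fold change 2.68).

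Among features of at least 10 CPM the highest log2 fold changes between the IPs belonged to Mir466b-3 (3.5002, at 104 and 122 CPM in the tagged IP, against 6.21 and 13.7 CPM in the untagged IP), the Mir669p pair (3.48) and a merged 3p feature of 10 hairpins, Mir669h and Gm hairpins led by Gm25701 (3.47). The lowest were a 16-hairpin Mir669a 5p feature (2.17), Mir466p with Mir466 (2.22) and Mir669b with Mir669m-1 and Mir669m-2 (2.25). All 6 were called higher by edgeR (adjusted p 0.00385 to 0.00835). With TMM or DESeq2 the 3 lowest turned to small negative values.

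**Figure D3:**
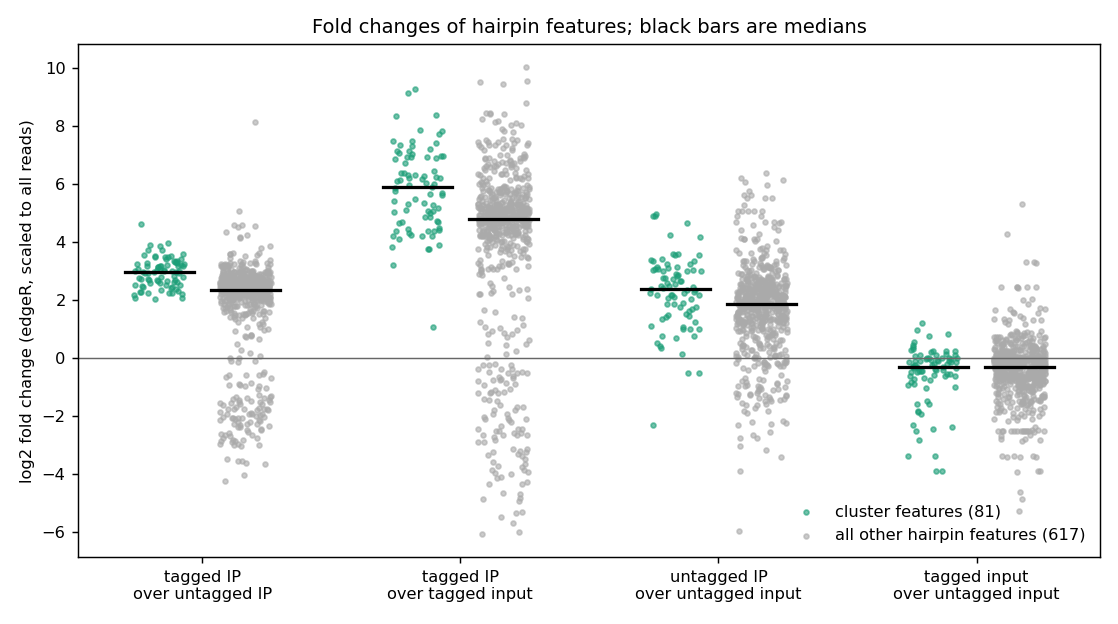
Log2 fold change (y axis) of the 81 tested cluster features (green) and the 617 other tested hairpin features (grey) in 4 replicated comparisons, with black bars at the medians. The cluster median is 2.98 between the IPs, 5.89 and 2.37 for the tagged and the untagged IP over their inputs, and -0.31 between the inputs.

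Against the tagged input the cluster was higher still. The tagged IP held 50.2 times the CPM of the tagged input (33.8 within A and 81.1 within B), with 507 CPM (A) and 269 CPM (B) in the tagged input. As a share of hairpin reads the cluster was at 3.62% ± 0.967 in the tagged IP, against 1.57% ± 0.114 in the tagged input (n = 2 each, SD), a ratio of 2.30 (1.78 within A and 2.89 within B; exact two-sided permutation p 0.333). Over the annotation 582 of 698 features (83.4%) were higher in the tagged IP and 57 (8.17%) lower by edgeR. The 81 tested cluster features include the 24 that reached 10 reads in both libraries of the tagged IP alone. Only 35 reached it in both libraries of an input, so this count too gives no support of its own. Of the 81 cluster features 80 were higher, with a median log2 fold change of 5.89, beside 4.86 over all hairpins, 4.64 for the Mir290a-Mir295 cluster and 4.85 for the Dlk1-Dio3 cluster. The exception, a merged Mir466f-2 feature of 2 hairpins named after its values were seen, stood at 1.02 ± 0.0267 CPM in the tagged IP, against 0.501 ± 0.709 CPM in the tagged input (n = 2 each, SD; log2 fold change 1.07, adjusted p 0.331 by edgeR). Scaling again set the count: 15 were higher and 1 lower with TMM, 13 higher of 66 tested with hairpin reads as library size, and 18 higher and 1 lower with DESeq2. Over all hairpins 37 of 698 were higher and 120 lower with TMM, 35 of 570 higher and 154 lower with hairpin reads, and 43 of 698 higher and 125 lower with DESeq2.

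The largest gain over the tagged input at 10 CPM or more was that of Mir669d with Mir669d-2. This pair stood at 355 (A) and 1052 CPM (B) in the tagged IP, against 3.48 and 2.74 CPM in the tagged input, with a log2 fold change of 7.82 (SE 0.99, adjusted p 7.75e-06 by edgeR). The smallest gains were those of the 5p products of Mir297b (4.21), of the 11-hairpin Mir466o feature (4.22) and of Mir466c-1, Mir466c-2 and Gm25285 (4.39). Features read mainly from the 3p arm had a median of 6.39 (41 features) and those from the 5p arm 5.03 (40 features). Of these 81 features only 35 had 10 reads in both libraries of an input, so low input counts enter both medians.

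The arms of cluster hairpins were recovered unevenly. Of all cluster reads, the share assigned to the 5p arm was 51.3% (A) and 56.8% (B) in the tagged IP, against 63.6% and 63.1% in the untagged IP. It was 69.9% and 90.6% in the tagged input, against 65.6% and 91.6% in the untagged input. Both tagged IP libraries lay below both libraries of each other group. The difference of means, tagged IP minus untagged IP, was -9.30 points (-12.3 within A and -6.27 within B), and tagged IP minus tagged input it was -26.2 points (-18.6 within A and -33.8 within B; exact two-sided permutation p 0.333 for each). Other hairpins had 5p shares of 33.0% and 40.1% in the tagged IP, of 29.6% and 35.6% for the untagged IP and of 32.0% and 36.0% for the tagged input, with overlap between groups. The inputs of replicate B stood apart from those of replicate A by over 20 points.

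The families shifted with the arms. Summed over merged features of 1 family, Mir466 was read mainly from the 3p arm, with 7077 CPM in features of that arm and 633 CPM in 5p features in the tagged IP mean. Mir467 was read mainly from the 5p arm, with 547 CPM in 3p features and 5582 CPM in 5p features. Mir466 took 41.7% (A) and 37.95% (B) of tagged IP cluster reads, 31.4% and 33.7% of untagged IP ones, 28.6% and 14.9% of tagged input ones and 31.2% and 10.3% of untagged input ones. Mir467 took 31.9% and 31.1% of tagged IP cluster reads, 43.9% and 35.6% of untagged IP ones, 38.8% and 54.8% of tagged input ones and 38.1% and 64.8% of untagged input ones. Tagged IP minus untagged IP, the difference was 7.27 points for Mir466 and -8.23 points for Mir467, with no overlap of libraries. Without untagged IP replicate A the Mir467 difference was -4.08 points, and without untagged IP replicate B it was -12.4 points. Mir669 shares overlapped, at 24.6% and 29.0% in the tagged IP and 22.7% and 28.8% in the untagged IP. Over 20 family shares compared, the adjusted p of the exact permutation test was 0.606 for the shares of Mir466 and Mir467 between the IPs, and a design of this size could not have reached the threshold. With each distinct sequence counted once, the Mir466 difference turned to -3.04 points between the IPs and -2.12 points against the tagged input.

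**Figure D4:**
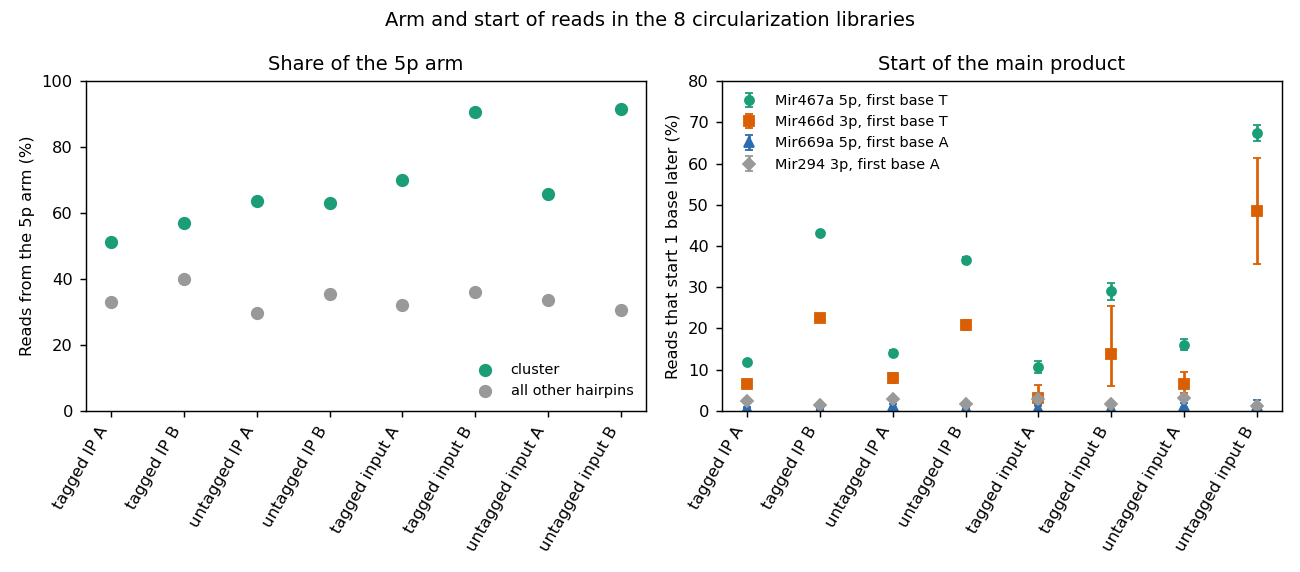
Left, percent of reads from the 5p arm in the cluster and in other hairpins, 1 point per library in the replicated groups. Right, percent of reads that start 1 base after the main start for Mir467a 5p, Mir466d 3p, Mir669a 5p and Mir294 3p, with 95% binomial intervals. Cluster 5p shares are lowest in the tagged IP at 51.3% and 56.8%, and Mir467a and Mir466d have more late starts in replicate B than in A.

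The start of a product sets its seed, and the start of some products moved between libraries. Mir467a 5p reads started 1 base later, giving the seed AGTGCCT, in 11.9% (A) and 43.0% (B) of tagged IP reads, 14.04% and 36.7% of untagged IP reads, 10.6% and 29.0% of tagged input reads and 16.04% and 67.4% of untagged input reads. The share was higher in B than in A in all 4 groups, and only 0.161% in TT-FHAgo2 cells with doxycycline and 0.0916% in wildtype cells. Mir466d 3p, which also starts with T, had 6.42% and 22.6% in the tagged IP, against 7.89% and 20.9% in the untagged IP, and 0.171% in wildtype cells. Mir92-1 of chromosome 14, a T-starting hairpin outside the cluster, went the same way, at 14.4% and 51.5% in the tagged IP and 0.432% in wildtype cells. The Mir466b 3p product starts with T too but went the other way, with 25.2% and 13.2% in the tagged IP and 35.8% in wildtype cells. Mir669a 5p, which starts with A, had 0.749% and 0.505% in the tagged IP and 0.738% in wildtype cells. The late starts of Mir467a and Mir466d therefore went with the replicate code and with the cloning protocol, and their part in the seed shares was not tested.

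The untagged IP has no FLAG tag to bind, and its comparison with the untagged input gives the background of the pulldown. The cluster stood at 2014 CPM (A) and 3474 CPM (B) in the untagged IP and at 618.4 and 358 CPM in the untagged input, 5.62 times as much in the mean (3.26 within A and 9.71 within B; exact two-sided permutation p 0.333). Of 698 features 342 (49.0%) were higher and 17 (2.44%) lower by edgeR. Of the 81 cluster features 52 were higher, with a median log2 fold change of 2.37 beside 1.91 over all hairpins. The highest at 10 CPM or more were Mir669d with Mir669d-2 (4.24), a short Mir466b 3p feature of 15 hairpins (4.17) and Mir466d with Mir466h (3.60). The lowest were Mir467c (1.76), Mir669b with Mir669m-1 and Mir669m-2 (1.77) and Mir467d (1.84). Without untagged input replicate B 3 features were called higher, without untagged IP replicate B 14, and counting distinct sequences instead of reads left 0 of 57 called by edgeR, with 5 at an unadjusted p under 0.05. The count was 2 with TMM, 1 with hairpin reads as library size and 4 with DESeq2, beside 3, 2 and 13 over all hairpins. Over all hairpins 8 were called higher without untagged input replicate B, 80 without untagged IP replicate B and 0 of 478 with distinct sequences.

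The gain of IP over input was then compared between the lines, with tag and cell line going together. It shares its 8 libraries with the comparisons above. Over all hairpins 385 of 698 features (55.2%) gained more in the tagged line and 31 (4.44%) less, by edgeR. In the cluster 58 of 81 gained more, with a median log2 difference of 3.27 beside 2.84 over all hairpins. The 81 again include the 24 that reached 10 reads in both libraries of the tagged IP alone, so the count gives no support of its own. The largest differences at 10 CPM or more were those of Mir466b-3 (3.94, SE 1.25, adjusted p 0.0198 by edgeR), the Mir466b 3p feature of 15 hairpins (3.85) and Mir466m (3.83). The smallest, Mir466p with Mir466 (1.67), the 16-hairpin Mir669a feature (1.796) and a 16-hairpin Mir466b feature (2.003), did not pass the threshold. By edgeR the count was 0 without tagged IP replicate A (59 at an unadjusted p under 0.05), without tagged IP replicate B (51) or without tagged input replicate B (49). In these 3 settings edgeR also called 0 over all hairpins, with 399, 383 and 401 at an unadjusted p under 0.05. The cluster count was 11 of 90 without untagged IP replicate A, beside 78 of 796 over all hairpins, and 14 of 90 without untagged input replicate A, beside 136 of 823. Without untagged input replicate A the differences of Mir466b-3 and of the 15-hairpin Mir466b feature were 1.89 and 0.98 and no longer called by edgeR, and without tagged input replicate A they were 5.91 and 6.08. With TMM and with hairpin reads as library size edgeR called 0, with 4 at an unadjusted p under 0.05 in each, and DESeq2 called 0; these settings also called 0 higher over all hairpins, and 77, 85 and 96 lower.

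The summed level of the cluster did not separate the inputs of the tagged and the untagged line. The cluster averaged 388 ± 168 CPM in the tagged input, against 488 ± 184 CPM in the untagged input (n = 2 each, SD), and the libraries overlapped. The ratio of means was 0.795 (0.820 within A and 0.752 within B; exact two-sided permutation p 0.667). By edgeR 0 of 81 cluster features and 0 of 698 hairpins (0.0%) were called in either direction, with 3 and 23 at an unadjusted p under 0.05, and DESeq2 also called 0 of 81. The median log2 fold change was -0.31 in the cluster and -0.33 over all hairpins. The cluster's share of hairpin reads and its Mir297, Mir466, Mir467 and Mir669 shares overlapped too. Some other measures did not overlap. As a percent of Dlk1-Dio3 reads the cluster stood at 34.2% (A) and 37.4% (B) in the tagged input, against 32.5% and 23.8% in the untagged input.

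The single libraries ask whether the cluster needs Dicer and Ago2. Cluster reads numbered 178 (2.26 CPM) in Dicer null cells, 19632 (705 CPM) in TT-FHAgo2 cells with doxycycline, 399 (15.0 CPM) in TT-FHAgo2 cells without it and 142362 (4414 CPM) in wildtype cells. The Dicer null level was 0.000512 of that in wildtype cells (95% Clopper-Pearson interval 0.000440 to 0.000593, for counting error only), or 1953-fold lower. With doxycycline the cluster was 46.9 times as high as without it (interval 42.5 to 51.9), and it was 0.160 of the wildtype level (0.157 to 0.162). Without doxycycline it was 0.00341 of the wildtype level (0.00308 to 0.00376). The order of the levels was Dicer null, without doxycycline, with doxycycline and wildtype, each apart from the next by more than the counting error.

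Features with at least 100 reads in both libraries together were compared one by one, and a ratio past 2-fold was counted. In Dicer null against wildtype cells 328 of 421 hairpin features (77.9%) were lower and 22 (5.23%) higher, and in the cluster 47 of 47 were lower, 27 of which had a count of 0 in Dicer null cells. With those set to the floor of 3 counts the median ratio was 0.00115 in the cluster, 0.00783 over all hairpins, 0.00497 for the Mir290a-Mir295 cluster and 0.00484 for the Dlk1-Dio3 cluster. None of the 47 had more than 48 reads in Dicer null cells. They passed the limit of 100 reads through wildtype cells, where they were high, so their count and median give no support of their own. The Mir467a 5p feature had 36 reads in Dicer null cells and 39294 in wildtype cells. The Mir466b 3p feature of 14 hairpins had 0 reads in Dicer null cells and 4852 in wildtype cells, at least 3949-fold lower. A smaller share of the remaining reads had the size of Dicer products. Reads of 20 to 24 nt made up 41.6% of them, against 98.9% in wildtype cells, and reads of 26 nt or more 12.4%, against 0.0709%.

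The highest ratios in Dicer null cells were those of Mir669h (0.0134, 6 reads), Mir669f (0.00632, 48 reads) and Mir466g (0.00299, 3 reads, interval 0.000614 to 0.00880). Where the Dicer null count was 0, the bound was set by the wildtype count: Gm25263 (253 wildtype reads) was at least 206-fold lower, Mir297a-2 (157 reads) at least 128-fold and Mir297c (144 reads) at least 117-fold. Of the 48 Mir669f reads 31 were 1 sequence, the first 19 bases of its 121-base hairpin, which lies outside the main product:
Mir669f, bases 1 to 19: tgtatgtgcctgtgtgtat
This read had 31 counts in Dicer null cells, 34 with doxycycline, 28 without it and 108 in wildtype cells, so it varied far less than the products did. The files held 78762632 reads for Dicer null cells, 27829938 with doxycycline, 26542602 without it and 32255916 for wildtype cells. A like count in Dicer null cells is therefore a lower level per read of the file. The 22-nt Mir467a 5p read had 14 counts in Dicer null cells, 4467 with doxycycline, 27 without it and 30258 in wildtype cells.

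Without doxycycline, 328 of 386 hairpin features (85.0%) were more than 2-fold lower than in wildtype cells and 9 (2.33%) higher; in the cluster 47 of 47 were lower. The median ratio was 0.00508 in the cluster, with 10 features at the floor, and 0.0155 over all hairpins. Nearly all of these 47 features passed the read limit through wildtype cells, where they were high. Their count and median therefore give no support of their own. The Mir467a 5p feature had 120 reads without doxycycline, and 53.3% of them (interval 44.0 to 62.5) started 1 base before the main start, against 6.68% with doxycycline and 3.40% in wildtype cells. Its most frequent read without doxycycline is shown because it is not the main product:
Mir467a, starting 1 base earlier: gtaagtgcctgcatgtatatg
It had 221 counts with doxycycline, 55 without it and 367 in wildtype cells. Reads of 18 to 19 nt were 16.5% of cluster reads without doxycycline and 0.785% in wildtype cells. The highest ratio to wildtype was that of Mir466p with Mir466, at 0.0460 (7 reads, interval 0.0182 to 0.0967).

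With doxycycline against without it, 256 of 327 hairpin features (78.3%) were more than 2-fold higher and 3 (0.917%) lower; in the cluster 27 of 27 were higher. The median ratio was 71.5 in the cluster, 30.5 over all hairpins, 39.5 for the Mir290a-Mir295 cluster and 60.3 for the Dlk1-Dio3 cluster. Nearly all of these 27 features passed the read limit through the library with doxycycline, where they were high. Their count and median therefore give no support of their own. The lowest cluster ratios were those of Mir669f (7.47, interval 5.54 to 10.3), the 11-hairpin Mir466o feature (25.01) and the Mir467a 3p feature (29.0). The Mir466b 3p feature of 14 hairpins had 569 reads with doxycycline and 1 without (ratio 543, interval 97.01 to 21472). The cluster's share of hairpin reads was 0.686% with doxycycline and 0.116% without it.

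The cluster stood below its wildtype level in the library with doxycycline. With doxycycline 228 of 396 hairpin features (57.6%) were more than 2-fold lower than in wildtype cells and 11 (2.78%) higher; in the cluster 49 of 49 were lower, at ratios of 0.0875 to 0.287. The cluster's median ratio of 0.147 stood beside 0.4002 over all hairpins, 0.528 for the Mir290a-Mir295 cluster and 0.649 for the Dlk1-Dio3 cluster, which is also imprinted. As a share of the Mir290a-Mir295 cluster reads the cluster stood at 1.48% with doxycycline, 1.69% without it and 5.89% in wildtype cells. As a share of Dlk1-Dio3 reads it stood at 7.92% with doxycycline, 6.10% without it and 29.4% in wildtype cells. Both single TT-FHAgo2 libraries thus held a lower cluster share than the wildtype library, and line and Ago2 supply cannot be told apart in that comparison. The 2 tagged inputs, of the same line at 2.5 µg/mL doxycycline but cloned by circularization, did not share this for Dlk1-Dio3: the cluster stood at 34.2% (A) and 37.4% (B) of Dlk1-Dio3 reads there, above wildtype, and at 2.83% and 2.46% of Mir290a-Mir295 cluster reads, below wildtype. The lowest ratios to wildtype were those of Mir669a-3 (0.0875), Mir669b (0.0907) and the Mir669p pair (0.0945). The highest were those of a 10-hairpin Mir466m 5p feature (0.287) and Mir466g (0.234).

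**Figure D5:**
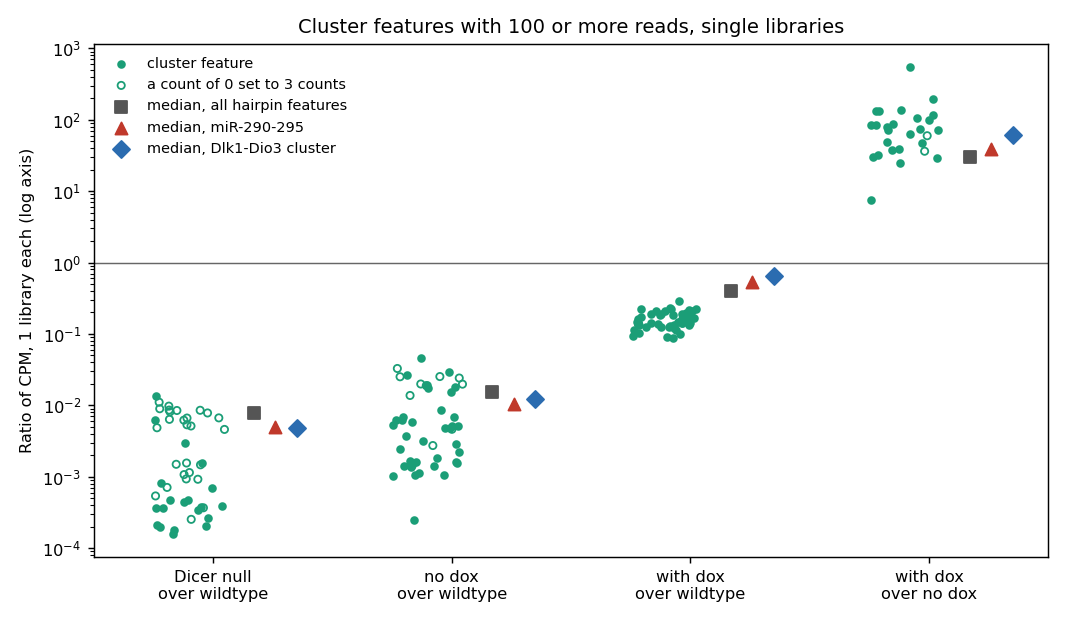
Ratio of CPM between single libraries (y axis, log scale) for cluster features with at least 100 reads in the pair. The pairs are Dicer null over wildtype, without doxycycline over wildtype, with doxycycline over wildtype, and with over without doxycycline. Open circles are features with a count of 0 set to 3 counts. A square marks the median of all hairpin features, a triangle that of the Mir290a-Mir295 cluster and a diamond that of the Dlk1-Dio3 cluster. Cluster medians are 0.00115, 0.00508, 0.147 and 71.5, each farther from 1 than the median of all hairpins. In pairs with Dicer null cells or cells without doxycycline, nearly all cluster features reached 100 reads through the other library, where they were high.

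The host transcript gave few small RNAs. Reads in the spliced Sfmbt2 transcript stood at 0.426 and 0.166 CPM in the tagged IP, against 2.03 and 0.329 CPM in the untagged IP, and at 0.334 and 0.108 CPM in the tagged input, against 0.120 and 0.0691 CPM in the untagged input. They stood at 0.660 CPM in Dicer null cells, 0.934 CPM with doxycycline, 0.527 CPM without it and 1.52 CPM in wildtype cells. These rest on 1 to 52 reads a library. Among the single libraries the host transcript was highest in wildtype cells and next with doxycycline, as the cluster was, but Dicer null cells lay above the cells without doxycycline. Reads of the 10 annotated Mir466, Mir467 and Mir669 hairpins outside the cluster that fit no cluster member stood at 110 and 206 CPM in the tagged IP, against 9.32 and 27.4 CPM in the untagged IP. Both outside features tested were higher in the tagged IP by edgeR, at a median log2 fold change of 2.62.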

How the data were processed

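The files as deposited by the authors hold 1 line per read sequence with its raw count, whole numbers with no normalization, as their values show. Trimming of reads by the authors is not given in the sources consulted. Sequences of 18 nt or more were matched exactly to GENCODE M21 transcripts (GRCm38), and those within miRNA genes were counted once per merged feature. CPM uses all reads of a file. One edgeR fit (version 4.0.16, in R 4.3.3) over the 8 libraries of the 4 replicated groups gave quasi-likelihood F tests, with file totals as library sizes, the default filterByExpr and Benjamini-Hochberg adjustment over all 698 tested hairpin features at 0.05. DESeq2 1.42.0, TMM, hairpin-read scaling, no filter, reads of 20 to 24 nt, other counting and leaving out each library were the alternatives. Library values were compared by exact permutation tests (scipy 1.17.1), single libraries by ratios with Clopper-Pearson intervals (95%) and no test; intervals and floors cover counting error only, since PCR copies cannot be told from molecules. The fit was also run on simulated counts with 200 features changed in the tagged IP, at a fixed spread not taken from these libraries. That run checks the working of the fit and not the calls given here. Named were the 12 most abundant features, the most abundant of each family, the 3 highest and 3 lowest in each comparison (at least 10 CPM, or 100 reads in single libraries) and the 8 most abundant products; the text gives a part. Members and lists were chosen with earlier results of these data known. RefSeq mature sequences for cluster members were not used here. Tables and plots were made in Python 3.11.15 with matplotlib 3.10.9, pandas 2.3.3 and numpy 2.4.6.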

Additional observations from a re-analysis of the deposited data

Results flagged for a closer look

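The difference in IP gain between the lines stood out as a tested interaction. By edgeR 58 of 81 cluster features gained more over input in the tagged line than in the untagged line, beside 385 of 698 (55.2%) over all hairpins. The 81 include 24 that reached 10 reads in both libraries of the tagged IP alone, so the count gives no support of its own. Without tagged IP replicate A, tagged IP replicate B or tagged input replicate B, edgeR called 0 in the cluster (59, 51 and 49 at an unadjusted p under 0.05) and 0 over all hairpins (399, 383 and 401), and with TMM, hairpin-read scaling and DESeq2 0 were called higher in both. The log2 differences of Mir466b-3 (3.94), the Mir466b 3p feature of 15 hairpins (3.85) and Mir466m (3.83) were the largest at 10 CPM or more. Without untagged input replicate A those of Mir466b-3 and the 15-hairpin feature were 1.89 and 0.98 and not called.

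Reads outside the main measurement also held cluster signal. Sequences that match a cluster hairpin only without their last 3' base numbered 29 in Dicer null cells and 25699 in wildtype cells. They made up 12.1% in Dicer null cells and 15.0% in wildtype cells of the sum of these reads, the cluster reads and those shared with outside hairpins. Only hairpin transcripts were searched, so a genomic base just past an annotated hairpin end also counts. The features shared with hairpins outside the cluster, kept out of all comparisons, averaged 766 ± 338 CPM in the tagged IP, against 112 ± 39.5 CPM in the untagged IP (n = 2 each, SD).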

How the results depend on the processing

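Scaling decided the counts of cluster features called higher. Under TMM, hairpin-read scaling and DESeq2 they were 0, 0 and 0 between the IPs (81 as reported), 15, 13 and 18 for the tagged IP against its input (80), 2, 1 and 4 for the untagged IP against its input (52) and 0, 0 and 0 for the difference between lines (58). Over all hairpins the same settings gave 1, 0 and 0 (546), 37, 35 and 43 (582), 3, 2 and 13 (342) and 0, 0 and 0 (385). Counting each distinct sequence once left 0 for the untagged IP against its input. Leaving out 1 library gave 60 to 84 calls between the IPs, 78 to 89 for the tagged IP against its input, 3 to 55 for the untagged IP against its input, 0 to 63 for the difference between lines and 0 to 0 between the inputs. The labels do not say what the replicate codes mark; libraries of the same code deviated together (correlation over 0.1, over 698 features) in 5 of 6 pairs of groups, at -0.07 to 0.60, short of every pair. With the codes as a replicate block the counts were 81, 80, 54, 65 and 0, so the block changed no count by over 1.5 times.

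Leaving out 1 library moved the ratio of cluster CPM between 0.551 and 1.08, and of hairpin share between 0.842 and 1.48, for tagged against untagged input; with distinct sequences counted once that hairpin share ratio was 0.968. The Mir669 share difference ranged from -1.95 to 4.12 points between the IPs and from -4.12 to 0.265 points against the tagged input. Hairpin-read scaling and reads of 20 to 24 nt moved the single-library ratios to 0.00761 and 0.000215 for Dicer null over wildtype, 0.0553 and 0.00277 without doxycycline over wildtype and 5.93 and 57.3 with over without doxycycline; hairpin-read scaling gave 0.328 for with doxycycline over wildtype.

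Signs of single features that turned were small. Between the IPs, TMM, hairpin-read scaling and DESeq2 gave -0.12, -0.043 and -0.14 for Mir466p with Mir466 and -0.15, -0.036 and -0.16 for the 16-hairpin Mir669a feature; TMM and DESeq2 gave -0.044 and -0.065 for Mir467d and -0.068 and -0.087 for Mir669b with Mir669m-1 and Mir669m-2. Against the tagged input the same 3 settings gave -0.33, -0.23 and -0.43 for Mir297b, -0.23, -0.13 and -0.35 for the Mir466c feature and -0.33, -0.24 and -0.44 for the Mir466o feature, and TMM and DESeq2 gave -0.033 and -0.14 for the Mir669b feature. For the untagged IP against its input, TMM, DESeq2 and distinct sequences gave -0.063, -0.076 and -0.46 for Mir467c, -0.087, -0.10 and -0.27 for Mir467d and -0.11, -0.12 and -0.27 for the Mir669b feature, which was -0.0098 with hairpin-read scaling. With distinct sequences counted once, share differences turned to -3.04 points (Mir466 between the IPs) and, against the tagged input, 0.636 (Mir297), -2.12 (Mir466) and 1.41 (Mir669). The cause was not tested. Depth limited the inputs, where 35 of 81 features had 10 reads in both libraries of a group.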
